A study of Homo sapiens with 28 samples.

Results

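The data described here are 9 of the 28 arrays of a series on kidney cancer xenografts. They compare 4 tumours of the human clear cell renal carcinoma line 786-O that the labels call resistant to sunitinib with 5 untreated 786-O tumours of the same sunitinib arm. The 9 arrays were chosen by their treatment label alone, and all 19775 genes with at least 1 probe set of a single gene symbol were considered, each through its probe set of highest mean. The series title asks which expression changes accompany resistance to inhibitors of VEGF receptor kinases. The other 19 arrays hold the sorafenib arms of 786-O (5 untreated and 5 resistant tumours, which share no sample with the sunitinib arm) and of a second line, A498.

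All tumours grew under the skin of the flank of female athymic nude/beige mice that were 6 to 8 weeks old at injection. The resistant group had received sunitinib by gavage at 53.6 mg/kg on 6 days of each week once a tumour measured 12 mm across, and the untreated group carries no drug label. Excision took place either at 12 mm, ahead of any treatment, or at the largest size allowed, 20 mm, and the labels give neither the size nor the time on study of a single tumour. A size, age or growth difference between the groups therefore cannot be told apart from the drug. 786-O is 1 established line, nude mice lack mature T cells, and the vessels and stroma of such a tumour come from the mouse. Whether any of the tumours shared a mouse is not stated, and p-values therefore reflect only how much these samples vary, which may be technical in part.

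Sunitinib blocks the kinases of the VEGF and PDGF receptors and of KIT, FLT3, CSF1R and RET, and in kidney cancer it acts largely on tumour vessels. 786-O carries no working VHL protein, so its hypoxia-inducible factor EPAS1 (HIF-2 alpha) is stable without hypoxia and drives VEGFA, glucose uptake and other hypoxia genes. The line derives from the epithelium of the proximal tubule, the nephron segment that reabsorbs solutes through brush border transporters and detoxifies organic compounds.

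The arrays were Affymetrix HG-U133 Plus 2.0, with 1 colour. Signals below are the deposited linear probe set intensities, and a difference is resistant minus untreated on the scale of log2(signal + 16), on which a rise of 1 unit is at least a doubling of the signal, and more than that for low signals. A gene was called where limma's Benjamini-Hochberg adjusted p over the 13808 genes tested was under 0.05. The other 5967 genes did not exceed the median of all values, a signal of 89.4, on at least 4 of the 28 arrays of the series. A tested gene can therefore lie below this limit in every tumour of the comparison. For 96 called genes the mean of at least 1 group lay below that limit, and the size of the change is then uncertain; of those named below this holds for IL1RAPL2, DLL4, GALNT12, FLG, TMT1A, IRAG2, LRRC31, SHANK3, PKHD1, MAML3, BCO1, DHRS9, AKR1B10, UGT3A1, AGXT2, CLDN10, A4GALT and TREM1. Tumour numbers are names in order of deposition. The arrays of the comparison had median signals of 80.3 to 93.6, and the correlation across genes was 0.959 to 0.970 between untreated tumours, 0.957 to 0.965 between resistant tumours and 0.952 to 0.968 between the groups, so that no array stood apart. The 3-prime minus 5-prime difference of the GAPDH control probe sets, a sign of RNA breakdown, was lower by 0.03 on the log2 scale in resistant tumours (two-sided exact permutation p = 0.5635), and that of ACTB was higher by 0.01 (p = 0.8651); the smallest p that 5 against 4 tumours allow is 0.0159.

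The tumours carried the markers of their line. Among 8 tested markers of kidney epithelium and clear cell carcinoma, which include PAX8, VIM and KRT8, only CDH6 was called, and the list's mean level ran from 10.73 to 11.14 in the untreated and from 10.66 to 11.08 in the resistant tumours. Probes designed on human transcripts can also bind mouse RNA of the host. Of 20 endothelial markers only 7 passed the filter, and the defining KDR, CDH5 and VWF were not among them; 10 of 21 macrophage markers and 15 of 21 fibroblast and pericyte markers passed. The summed signal of the endothelial list was 678 to 875 in untreated and 579 to 747 in resistant tumours. That of the macrophage list was 789 to 1353 in untreated and 773 to 1036 in resistant tumours, and that of the fibroblast list was 5043 to 9363 in untreated and 4254 to 8925 in resistant tumours. SOX18, an endothelial transcription factor, fell by 0.94 (SE 0.26, adjusted p = 0.0331) and RGS5, a pericyte gene, by 0.99 (SE 0.24, adjusted p = 0.0176). SOX18 was not called without untreated tumours 2 or 4 or resistant tumours 2 or 3 (adjusted p from 0.0631 to 0.141), and RGS5 not without untreated tumour 2 or resistant tumours 2 or 3 (adjusted p from 0.0515 to 0.0608). All 7 tested skeletal muscle markers had a positive difference, with a median of 0.85. Limma called 0 of them, and 2 had an unadjusted p under 0.05, beside 2584 of all 13808 tested genes. The summed signal of the muscle markers was 419.9 to 1339 in untreated and 957 to 1936 in resistant tumours. The part of muscle RNA in the results below was not tested, and fewer cells of a type cannot be told apart from less RNA per cell. Whether the signals of these host markers, SOX18 and RGS5 included, came from mouse cells or from the 786-O cells themselves was not tested.

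Over all genes, 306 were higher in resistant tumours (2.22% of those tested) and 392 lower (2.84%). The difference reached at least 1 on the log2 scale in 50 of the higher and 105 of the lower ones, while the median difference of all tested genes was -0.01. Without regard to the test, all 4 resistant tumours lay above or below all 5 untreated ones for 1168 genes (8.46%), which include 537 of the 698 called. Centring each array on its median left 619 calls and turned the split to 358 higher and 261 lower (57.8% higher, against 43.8% before), so the balance of rises and falls is not fixed by these data. The count depended on single tumours: it was 313 without resistant tumour 3, 396 without resistant tumour 4 and 442 without untreated tumour 1, and it was 259 when the spread was estimated from the 9 arrays alone. Of the 94 called genes named by rule, 53 stayed called whichever of the 9 tumours was left out.

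**Figure D1:**
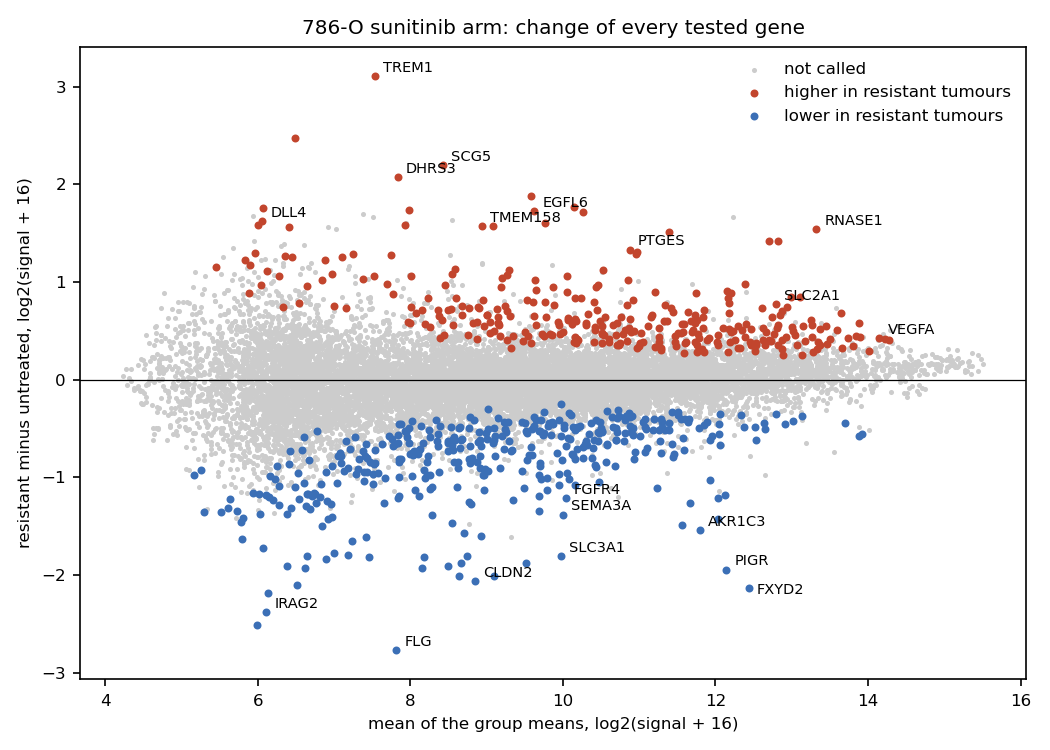
Difference between resistant and untreated 786-O tumours of the sunitinib arm (y axis, log2 scale) against the mean of both group means (x axis, log2(signal + 16)) for 13808 genes, 1 point a gene. Red points are the 306 genes called higher and blue points the 392 called lower; TREM1 has the largest rise and FLG the largest fall.

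DHRS3, SHISAL1, EGFL6 and NKAIN4 led the rises in which no resistant tumour overlapped an untreated one. DHRS3, a reductase that turns retinaldehyde back into retinol, had signals of 47.8, 39.6, 197, 115 and 155 in the untreated tumours and 372, 604, 511 and 367 in the resistant ones. Every resistant tumour exceeded every untreated one, while untreated tumours 1 and 2 lay well below the other untreated ones. It rose by 2.08 (SE 0.33, adjusted p = 0.00108). EGFL6, a secreted protein with EGF repeats, had signals of 315, 257, 582, 324 and 816 in the untreated tumours and 1084, 1537, 1904 and 1282 in the resistant ones, again without overlap, and rose by 1.73 (SE 0.31, adjusted p = 0.00229). NKAIN4, which encodes a protein that binds the sodium pump, rose by 1.72 (SE 0.36, adjusted p = 0.00625), from signals of 433 to 1392 to signals of 1839 to 2540.

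PTGES, the enzyme that makes prostaglandin E2, had signals of 978, 1109.7, 1004, 1178 and 1679 in the untreated tumours and 2616, 2534, 4359 and 2669 in the resistant ones. Untreated tumour 5 was the highest of its group, and resistant tumour 3 stood above the other 3 resistant ones. The rise was 1.33 (SE 0.18, adjusted p = 0.000263). C1R, a serine protease of the complement cascade, had signals of 796, 1264, 1964, 2016 and 2386 in the untreated tumours and 3149, 5194, 5184 and 4864 in the resistant ones and rose by 1.51 (SE 0.30, adjusted p = 0.00446), with resistant tumour 1 the lowest of its group. SIK1, a salt-inducible kinase, had signals of 2025, 988, 1007, 1376 and 1130.4 in the untreated tumours and 2837, 3109.9, 3263 and 3368 in the resistant ones and rose by 1.31 (SE 0.17, adjusted p = 0.00021). Its 4 resistant tumours differed little from each other. SHISAL1 rose by 1.73 (SE 0.30, adjusted p = 0.00176) and IL1RAPL2 by 1.30 (SE 0.26, adjusted p = 0.00507), the latter with the means of both groups below the filter's limit. These genes stayed called without any single tumour, but SIK1 was not called without probe sets open to cross-hybridisation, those that can bind other transcripts (adjusted p = 0.588).

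Other large rises lost their call when 1 tumour was left out. SCD, the desaturase that makes oleic acid, had signals of 519.8, 409.5, 738, 258 and 653 in the untreated tumours and 893, 2443, 2727 and 857 in the resistant ones. Resistant tumours 2 and 3 were far above resistant tumours 1 and 4, and the rise of 1.60 (SE 0.36, adjusted p = 0.00979) was not called without resistant tumour 3 (adjusted p = 0.057). MYO1G, a myosin, rose by 1.58 (SE 0.39, adjusted p = 0.0175) and was not called without untreated tumour 1 or resistant tumours 3 or 4 (adjusted p from 0.0548 to 0.0819). RNASE1, a secreted ribonuclease, rose by 1.55 (SE 0.43, adjusted p = 0.0366) and was not called without untreated tumours 2, 3 or 4 or resistant tumours 2, 3 or 4 (adjusted p from 0.054 to 0.128). GALNT12, a mucin glycosyltransferase, was below the filter's limit in every tumour of the comparison. It rose by 1.23 (SE 0.32, adjusted p = 0.0264), a call lost without untreated tumours 1 or 4 or resistant tumours 2, 3 or 4 (adjusted p from 0.0509 to 0.0794).

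TREM1, a receptor of myeloid cells that amplifies inflammation, had signals of 6.03, 16.7, 208, 7.51 and 249 in the untreated tumours and 217, 568, 768 and 822 in the resistant ones. Untreated tumours 3 and 5 reached the level of resistant tumour 1, while the other 3 untreated tumours had very low signals, so the groups overlapped. It rose by 3.11 (SE 0.72, adjusted p = 0.0124). SCG5, a secretory granule chaperone, had signals of 85.7, 55.7, 262, 129 and 349.8 in the untreated tumours and 349, 832, 1034 and 909.6 in the resistant ones and a rise of 2.20 (SE 0.48, adjusted p = 0.00782), and untreated tumours 3 and 5 were again the highest of their group. Both TREM1 and SCG5 stayed called without any single tumour, but neither with the arrays of the comparison alone (adjusted p = 0.0953 and 0.0629). Of 10 tested macrophage and myeloid markers 0 were called, with 3 positive and 7 negative differences and a median of -0.25. LAPTM5, CD53 and AIF1 were among the negative ones, with differences of -0.28, -0.67 and -0.72. The cell type behind the TREM1 signal was not tested.

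The largest falls included genes of the kidney tubule, which are described below, and several others. FLG, filaggrin of the cornified epidermis, had signals of 1030.2, 609, 399.7, 1371 and 169 in the untreated tumours and 99.7, 41.4, 43.6 and 122 in the resistant ones. Untreated tumour 5 was far below the other untreated ones and still above every resistant tumour, and FLG fell by 2.77 (SE 0.50, adjusted p = 0.00229). Its 5 tested companions among skin and fat markers, including KRT10 and KRT15, were not called. IRAG2, a membrane protein of the endoplasmic reticulum, had signals of 122, 128, 185, 141 and 137 in the untreated tumours and 18.7, 10.3, 14.6 and 13.8 in the resistant ones and fell by 2.38 (SE 0.39, adjusted p = 0.00108). LRRC31 fell by 2.19 (SE 0.36, adjusted p = 0.00119) and SHANK3, a synaptic scaffold protein, by 1.92 (SE 0.43, adjusted p = 0.0107). The resistant tumours of IRAG2, LRRC31 and SHANK3 were below the filter's limit, so that the sizes of these falls are uncertain, and SHANK3 was not called without resistant tumour 2 (adjusted p = 0.0527). TMEM37, a membrane protein, had signals of 509, 777, 1062, 892 and 690.2 in the untreated tumours and 273, 192, 181 and 155 in the resistant ones and fell by 1.88 (SE 0.31, adjusted p = 0.00118). TMT1A fell by 2.51 (SE 0.39, adjusted p = 0.000982), but its probe sets disagreed: with a pseudocount of 1 another of its probe sets had the highest mean and gave a rise of 1.26 (adjusted p = 0.0497).

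**Figure D2:**
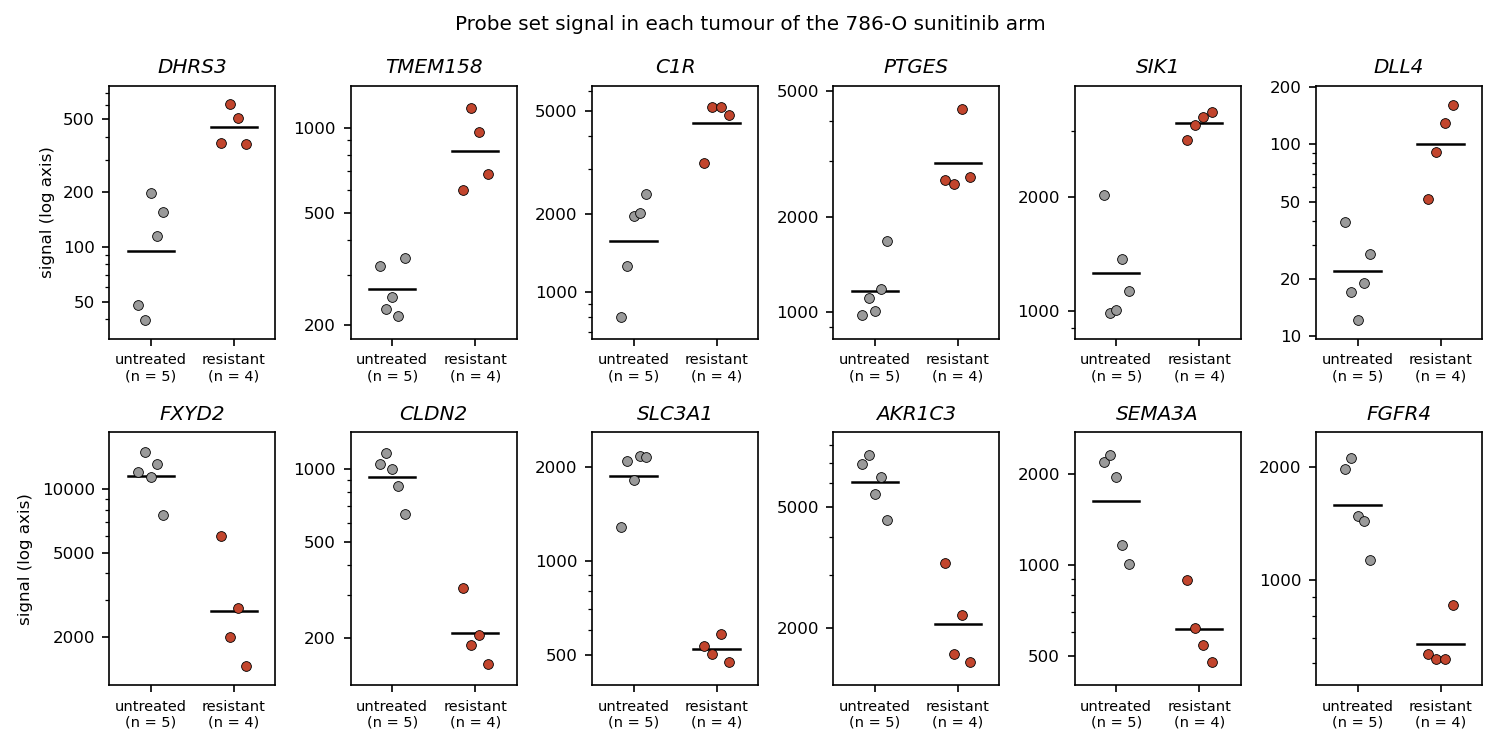
Signal of 12 called genes in each of the 5 untreated (grey) and 4 resistant (red) tumours, on log axes that differ between panels; the line is the mean of log2(signal + 16) put back on the signal scale. Genes of the upper row rose and genes of the lower row fell, and the groups did not overlap for any of the 12.

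Of the receptor kinases that sunitinib inhibits, 4 of 9 listed genes were above the filter and 0 were called, against 2.22% and 2.84% of all genes. KDR, PDGFRB and KIT were below the filter. FLT1, a VEGF receptor, had signals of 208, 38.2, 195, 173 and 176 in the untreated tumours and 86.7, 136, 125 and 217 in the resistant ones. The groups overlapped, with untreated tumour 2 far below the others, and the difference was -0.05 (adjusted p = 0.959). PDGFRA had a difference of -0.29, CSF1R of 0.05 and RET of 0.98, where RET had an unadjusted p under 0.05 only.

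Some ligands and other vascular factors changed. VEGFA, the main ligand of those receptors, had signals of 15100.5, 15601, 16426, 16125 and 15037 in the untreated tumours and 18035, 22144, 24333 and 20103 in the resistant ones. All 4 resistant tumours were higher, by 0.43 (SE 0.11, adjusted p = 0.0197), but the call was lost without resistant tumour 2 (adjusted p = 0.0586) or resistant tumour 3 (adjusted p = 0.0975). ANGPTL4, a secreted angiopoietin-like factor, rose by 1.29 (adjusted p = 0.0304). SEMA3A, a secreted semaphorin that repels axons and endothelial cells, had signals of 2189, 2306, 1961, 1165 and 1007 in the untreated tumours and 895, 622, 543 and 478 in the resistant ones. It fell by 1.38 (SE 0.25, adjusted p = 0.00229), although untreated tumours 4 and 5 lay near resistant tumour 1. SEMA3F, a semaphorin of the same class, had signals of 771, 964, 585, 719.8 and 758 in the untreated tumours and 419.8, 348, 567 and 511 in the resistant ones and fell by 0.70 (SE 0.15, adjusted p = 0.0087). Both falls held without any single tumour, but that of SEMA3F was not called with the mean of its probe sets (adjusted p = 0.388) or with the arrays of the comparison alone (adjusted p = 0.0744). In the list of 30 tested angiogenic factors and receptors, 4 rose (VEGFA, ADM, ANGPTL4 and EGFL6), 2 fell and 9 did not overlap between the groups, beside 2.22%, 2.84% and 8.46% of all genes; the median difference was 0.21, beside -0.01 for all genes. Without resistant tumour 3 only 2 members were higher. CXCL8, a chemokine that promotes vessel growth, had signals of 8384, 4367, 7638, 6346 and 3612 in the untreated tumours and 5890.3, 9059, 5248 and 4018 in the resistant ones and a difference of 0.00 (adjusted p = 0.996), and IL6 one of -0.09 (adjusted p = 0.915).

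Hypoxia genes were higher as a group in every resistant tumour. The list's mean level was 11.64 to 11.84 in the untreated and 11.94 to 12.13 in the resistant tumours. Of 38 tested members 11 rose and 0 fell, beside 2.22% and 2.84% of all genes, and the median difference was 0.25. SLC2A1, the glucose transporter GLUT1, had signals of 5567, 4758, 6129, 5378 and 5253 in the untreated tumours and 8064, 8299, 11074 and 9986 in the resistant ones. There was a gap between the groups, and SLC2A1 rose by 0.78 (SE 0.12, adjusted p = 0.00108). ADM, the vasodilator adrenomedullin, had signals of 6369, 6015, 9299, 8498 and 7758 in the untreated tumours and 9368, 9918, 12620.4 and 12224 in the resistant ones and rose by 0.55 (SE 0.12, adjusted p = 0.00748). DDIT4, an inhibitor of mTORC1, had signals of 12383, 11949, 13098, 14668 and 13729 in the untreated tumours and 17268, 16994, 19412 and 17500.2 in the resistant ones and rose by 0.44 (SE 0.09, adjusted p = 0.00507). These 3 kept their calls without any single tumour, but ADM and DDIT4 not with the arrays of the comparison alone (adjusted p = 0.112 and 0.0543), and SLC2A1 not without probe sets open to cross-hybridisation (adjusted p = 0.0517). The other called members were VEGFA, the carbonic anhydrase CA12, CCND1, the matrix oxidases LOX and LOXL2, BHLHE40, STC1 and ANGPTL4, with differences from 0.42 to 1.29.

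The increases were moderate, and the number called was fragile: it was 3 without resistant tumour 3, 6 without untreated tumour 2, 6 without resistant tumour 4 and 7 without untreated tumour 5. It was 2 when only the 9 arrays gave the spread and 3 without probe sets open to cross-hybridisation. The regulators showed less: of 8 tested, EPAS1 alone was called. EPAS1 had signals of 4108, 3647, 3631, 4589.9 and 4357 in the untreated tumours and 4970.1, 4998, 6596 and 6506 in the resistant ones and rose by 0.50 (SE 0.12, adjusted p = 0.0143), which was not called without resistant tumour 3 (adjusted p = 0.07) or resistant tumour 4 (adjusted p = 0.0624). Its call was also lost with the mean of its probe sets (adjusted p = 0.495) and with the arrays of the comparison alone (adjusted p = 0.0876). HIF1A had a difference of -0.26, and EGLN3, an oxygen sensor that marks the factors for VHL, one of 0.16. Among 20 glycolysis genes 2 rose, SLC2A1 and PKM, beside 2.22% of all genes. The pyruvate kinase PKM rose by 0.45 (SE 0.12, adjusted p = 0.0307). It was not called without untreated tumours 3 or 5 or resistant tumours 1 or 3 (adjusted p from 0.0675 to 0.137). LDHA, PGK1 and HK2 had differences of 0.22, 0.19 and -0.19 and were not called.

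**Figure D3:**
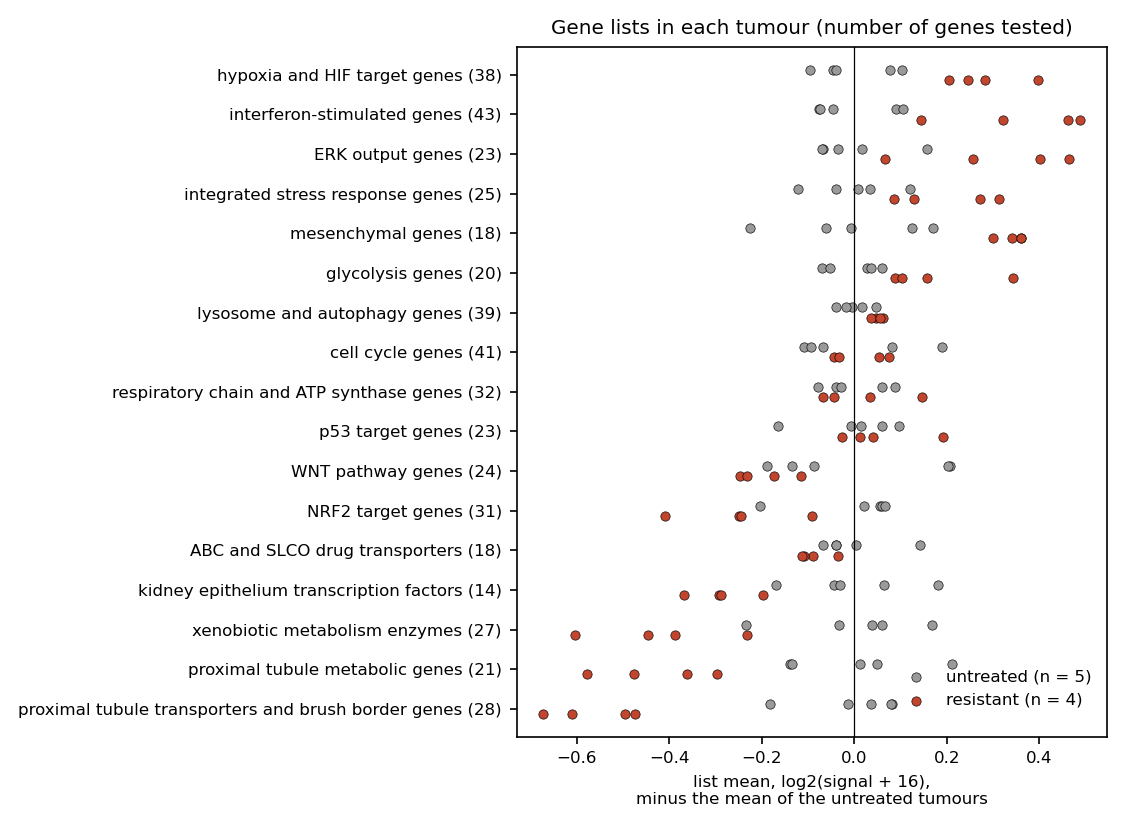
Mean level of 17 gene lists in each of the 5 untreated (grey) and 4 resistant (red) tumours, as log2(signal + 16) minus the mean of the untreated tumours; the number of tested genes stands beside each name. Hypoxia genes of the 4 resistant tumours lie to the right of all untreated ones and tubule transporters to the left, while cell cycle genes overlap.

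Hypoxia-inducible factors bind a short core, ACGTG or GCGTG, and the promoters of 3 hypoxia genes that rose are shown because they carry it. They are the 250 bases before the start site in RefSeq (GRCh38.p14), written 5′ to 3′ on the strand of the gene, with matches of either core on either strand in capitals. ADM lies on the plus strand at chr11:10304823-10305072 with 1 match at -101 from the start site, DDIT4 on the plus strand at chr10:72273674-72273923 with matches at -219, -125 and -53, and LOX on the minus strand at chr5:122078260-122078509 with matches at -185, -116, -98 and -42.
ADM: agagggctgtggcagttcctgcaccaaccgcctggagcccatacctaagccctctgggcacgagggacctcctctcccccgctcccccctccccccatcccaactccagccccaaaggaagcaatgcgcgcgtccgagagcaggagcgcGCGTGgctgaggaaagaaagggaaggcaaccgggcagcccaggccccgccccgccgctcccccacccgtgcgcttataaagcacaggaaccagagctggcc
DDIT4: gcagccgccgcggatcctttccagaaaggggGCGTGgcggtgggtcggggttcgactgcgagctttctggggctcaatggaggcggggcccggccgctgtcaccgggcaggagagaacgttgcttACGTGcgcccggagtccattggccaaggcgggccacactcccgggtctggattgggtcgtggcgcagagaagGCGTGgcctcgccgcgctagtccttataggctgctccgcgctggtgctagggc
LOX: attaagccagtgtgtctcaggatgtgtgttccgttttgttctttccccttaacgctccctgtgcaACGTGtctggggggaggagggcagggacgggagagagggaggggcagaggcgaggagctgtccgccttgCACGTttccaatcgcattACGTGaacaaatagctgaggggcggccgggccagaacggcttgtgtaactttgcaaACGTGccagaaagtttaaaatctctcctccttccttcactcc
In windows of 300 bases, which add 50 bases after the start site, a core stood in all 7 promoters found for the 11 hypoxia genes that rose and in 18 of 23 found for hypoxia genes that did not rise. It also stood in 48.4% of all 27305 promoters and in 61.4% of those of the tested genes. The motif is therefore common in promoters, the cores can overlap in CACGTG, and a match is a description and not a bound site.

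Stress response genes moved in both directions. Of 25 tested genes of the integrated stress response, the programme that ATF4 drives when translation is curtailed, 6 rose and 2 fell. The shares of all genes were 2.22% higher and 2.84% lower, and the list's median difference was 0.26. PPP1R15A, the phosphatase subunit that restores translation, had signals of 256, 225, 386, 243 and 287 in the untreated tumours and 378, 544, 636 and 491 in the resistant ones and rose by 0.84 (SE 0.18, adjusted p = 0.00734); untreated tumour 3 lay above resistant tumour 1. The others that rose were DDIT3 (0.77), MTHFD2 (0.49), DDIT4, ATF4 (0.42) and SHMT2 (0.39). SHMT2, a mitochondrial one-carbon enzyme, was not called without untreated tumour 1 (adjusted p = 0.0548) or resistant tumour 3 (adjusted p = 0.0925). The 2 that fell, PSAT1 and PSPH, make serine, and fell by 0.67 and 0.47. The call of PSAT1 was lost without untreated tumours 1, 2, 3, 4 or 5 or resistant tumours 2, 3 or 4 (adjusted p from 0.0621 to 0.149), and that of PSPH without untreated tumours 2, 3, 4 or 5 or resistant tumours 1, 2, 3 or 4 (adjusted p from 0.0507 to 0.214). The number of rises was 2 without untreated tumour 1 and 3 without resistant tumour 3, and 0 with the spread of the 9 arrays alone. Among 15 genes of the unfolded protein response, which include HSPA5, XBP1 and HSP90B1, limma called 0. An unadjusted p under 0.05 was found for 3 higher and 1 lower, beside 2584 of all 13808 tested genes.

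Sunitinib is a weak base that collects in lysosomes, which makes lysosome genes a list of interest here. Of 39 tested, 3 rose and 2 fell, beside 2.22% and 2.84% of all genes, with a median difference of 0.10. These counts are too near the shares of all genes to be a result about the list. LAMP1, the major lysosome membrane protein, had signals of 19069.8, 19487, 18499.9, 16737 and 14842 in the untreated tumours and 20942, 17059, 18919 and 14965 in the resistant ones, which overlapped, and a difference of 0.02 (adjusted p = 0.965). NPC2, which carries cholesterol in the lysosome, rose by 0.39 (SE 0.10, adjusted p = 0.0176) and the protease CTSB by 0.52 (SE 0.13, adjusted p = 0.0226). NPC2 was not called without resistant tumour 2 (adjusted p = 0.0512) or resistant tumour 3 (adjusted p = 0.0821), and CTSB not without untreated tumours 1 or 2 or resistant tumours 2, 3 or 4 (adjusted p from 0.0556 to 0.0783). The remaining rise was ATP6V0E1, a proton pump subunit whose probe sets disagreed in sign. MITF, a transcription factor of lysosome genes, had signals of 3028, 2619, 2008, 1683 and 1999 in the untreated tumours and 1284, 1342, 1158 and 1029.5 in the resistant ones and fell by 0.88 (SE 0.19, adjusted p = 0.00769) without overlap. ASAH1, acid ceramidase, fell by 0.45 (SE 0.12, adjusted p = 0.0278) and was not called without untreated tumours 3 or 4 or resistant tumours 3 or 4 (adjusted p from 0.0539 to 0.11). The number of rises was 0 without resistant tumour 3 and 1 without resistant tumour 2, and 0 with the spread of the 9 arrays alone.

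A share of the interferon-stimulated genes was higher. Of 43 tested, 7 rose and 0 fell, and 13 did not overlap between the groups, beside 2.22% higher and 8.46% without overlap among all genes. A positive difference was found for 38, and the median was 0.24. OAS2, a sensor that activates RNase L, had signals of 243, 198, 233, 312 and 243 in the untreated tumours and 639, 623, 421 and 554 in the resistant ones and rose by 1.13 (SE 0.18, adjusted p = 0.00108). MX2, an antiviral GTPase, had signals of 122, 120.3, 98.4, 116 and 161 in the untreated tumours and 331, 299.9, 273 and 383 in the resistant ones and rose by 1.28 (SE 0.22, adjusted p = 0.00155). IFI27 had signals of 5619, 5361, 8495, 7707 and 6126 in the untreated tumours and 14141, 11222, 9209.6 and 13393 in the resistant ones and rose by 0.85 (SE 0.14, adjusted p = 0.00108). In these 3 genes every resistant tumour lay above the untreated ones, and their calls held without any single tumour. The others were RSAD2 (1.06), EPSTI1 (0.95), ISG15 (0.72) and IFIT3 (0.58). The sensors RIGI and IFIH1 and the factor IRF7 had differences of -0.03, -0.10 and 0.01 and were not called. The number of rises was 4 without resistant tumour 1 and 4 without resistant tumour 4, and 3 with the spread of the 9 arrays alone. Among 17 class I antigen presentation genes, which interferon also induces, limma called 0. An unadjusted p under 0.05 was found for 3 higher and 0 lower, beside 2584 of all 13808 tested genes. Probe sets of HLA genes can bind each other's transcripts, as can those of other near-identical families.

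Several targets of the ERK kinase pathway, which lies downstream of receptor kinases, were higher. Of 23 tested, 6 rose and 1 fell, beside 2.22% and 2.84% of all genes, and the median difference was 0.30. TMEM158, a membrane protein induced by RAS signalling, had signals of 324, 228, 252, 214 and 344 in the untreated tumours and 602, 1171, 968 and 687 in the resistant ones. Each resistant tumour was above all untreated ones, and TMEM158 rose by 1.57 (SE 0.22, adjusted p = 0.000326). EPHA2, an ephrin receptor kinase, had signals of 1094, 974, 849, 828 and 735 in the untreated tumours and 1098, 1982, 2050.4 and 1459.9 in the resistant ones and rose by 0.84 (SE 0.16, adjusted p = 0.00446), with resistant tumour 1 barely above untreated tumour 1, and was not called with the arrays of the comparison alone (adjusted p = 0.067). FOSL1, an AP-1 subunit, rose by 0.97 (SE 0.21, adjusted p = 0.00866) and was not called without resistant tumour 3 (adjusted p = 0.053). SPRY4, SPHK1 and CCND1 also rose, by 0.89, 0.95 and 0.54. SPRY2, a feedback inhibitor of the pathway, went the other way, with signals of 273, 238, 138, 212 and 157 in the untreated tumours and 145, 146, 92.8 and 61.4 in the resistant ones and fell by 0.81 (SE 0.21, adjusted p = 0.0239), lost without untreated tumours 1 or 2 or resistant tumours 3 or 4 (adjusted p from 0.0605 to 0.113). DUSP6, the ERK phosphatase, had a difference of -0.38 and was not called (adjusted p = 0.227). The number of rises was 3 without resistant tumour 3 and 3 without resistant tumour 4, and 2 with the spread of the 9 arrays alone. Of 15 immediate early genes only ZFP36, which destabilises mRNAs, was called, and it rose by 0.65 (SE 0.19, adjusted p = 0.0498); the call was lost without each of the 9 tumours in turn (adjusted p from 0.0524 to 0.159).

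Receptor kinases that could signal beside the inhibited ones showed 1 rise and 2 falls among 21 tested. With 2.22% of all genes higher and 2.84% lower, these counts are too small to be a result about the list. The rise was that of EPHA2. FGFR4, a fibroblast growth factor receptor, had signals of 1967, 2106, 1475, 1436 and 1128 in the untreated tumours and 637, 616, 615 and 859 in the resistant ones and fell by 1.21 (SE 0.21, adjusted p = 0.00176). Resistant tumour 4 was above the other resistant ones and still below every untreated one. EPHA4 fell by 0.84 (SE 0.22, adjusted p = 0.0232) and was not called without untreated tumours 1 or 2 or resistant tumours 3 or 4 (adjusted p from 0.0626 to 0.0823). MET, the hepatocyte growth factor receptor, had signals of 17792, 17573, 16051, 17168 and 13908 in the untreated tumours and 16912, 19020.3, 19030.2 and 14344 in the resistant ones, and AXL signals of 3687, 2857, 2779, 3016 and 2939.7 in the untreated tumours and 2780.3, 3442, 3543 and 3342 in the resistant ones. Both overlapped between the groups, with differences of 0.07 (adjusted p = 0.805) and 0.10 (adjusted p = 0.823). EGFR, FGFR2 and FGFR3 were not called, with differences of 0.21, -0.89 and -0.76.

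Notch, retinoid, WNT and TGF-beta pathways each had a few called members, beside 2.22% of all genes called higher and 2.84% called lower. DLL4, a Notch ligand of sprouting vessels, had signals of 39.6, 17.1, 12.2, 18.9 and 26.9 in the untreated tumours and 51.9, 91.3, 128 and 161 in the resistant ones. Untreated tumours were all below the filter's limit, and the rise of 1.63 (SE 0.37, adjusted p = 0.0114) was not called without resistant tumour 4 (adjusted p = 0.0517). NOTCH2 rose by 0.39 (SE 0.10, adjusted p = 0.02), lost without resistant tumour 2 (adjusted p = 0.0846) or resistant tumour 3 (adjusted p = 0.0678), and MAML3, a co-activator of Notch, fell by 1.17 (SE 0.23, adjusted p = 0.00473). The direct Notch targets HES1, HEY1 and NRARP had differences of -0.21, -0.57 and -0.25 and were not called. Of 30 Notch genes 2 rose and 1 fell, with a median difference of -0.02, counts too near the share of all genes to be a result about the list; 1 rise was left without resistant tumour 2, 3 or 4.

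Retinoid genes changed in both directions. Beside DHRS3, TGM2, a retinoid-induced transglutaminase, rose by 0.53 (SE 0.16, adjusted p = 0.0456) and was not called without untreated tumours 1, 2, 3 or 4 or resistant tumours 2, 3 or 4 (adjusted p from 0.0672 to 0.151). ALDH8A1, which oxidises retinal, had signals of 309, 687, 688, 1294 and 788 in the untreated tumours and 242, 135, 251 and 102 in the resistant ones and fell by 1.91 (SE 0.38, adjusted p = 0.00512). BCO1, which cleaves beta-carotene, fell by 1.06 (SE 0.21, adjusted p = 0.00422) with signals of 165, 141, 193, 219.7 and 158 in the untreated tumours and 89.3, 72.8, 79.9 and 59.3 in the resistant ones. DHRS9, a retinol dehydrogenase, fell by 1.19 (SE 0.32, adjusted p = 0.0305) and was not called without untreated tumours 1, 2 or 3 or resistant tumours 1, 3 or 4 (adjusted p from 0.064 to 0.108). In all 2 of 25 tested members rose and 3 fell, and the median difference was -0.13. The receptors RARA, RARB and RXRA were not called.

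CTNNB1, beta-catenin of the WNT pathway, had signals of 7848, 6727, 7753, 7339.7 and 7282 in the untreated tumours and 5979, 4997, 5319 and 5444 in the resistant ones and fell by 0.44 (SE 0.09, adjusted p = 0.00752). Its groups were separate and its call held without any single tumour, but not with the mean of its probe sets (adjusted p = 0.393). FZD1, a WNT receptor, fell by 0.48 (SE 0.13, adjusted p = 0.0366), lost without untreated tumours 1, 2 or 5 or resistant tumours 3 or 4 (adjusted p from 0.0553 to 0.148). With LGR4, 3 of 24 WNT genes fell and 0 rose, with a median difference of -0.21 and 18 negative differences. The count was 1 without untreated tumour 1, 1 without untreated tumour 5, 1 without resistant tumour 3 and 1 without resistant tumour 4, and 0 when all probe sets of a gene were averaged, where LGR4 no longer differed in the same direction. AXIN2 and LEF1, targets of the pathway, had differences of -0.20 and -0.19 and were not called.

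Of 30 genes of the BMP and TGF-beta pathways 2 rose, and both are inhibitors; this count too lies near the 2.22% of all genes and is no result about the list. FSTL3, which binds activins, had signals of 1401, 1308, 1169, 1318 and 1245 in the untreated tumours and 2949, 2611, 2723 and 2268 in the resistant ones and rose by 1.02 (SE 0.18, adjusted p = 0.00176). SMAD7, the inhibitory SMAD, had signals of 536, 483, 486, 407 and 426 in the untreated tumours and 605, 672, 949.8 and 911 in the resistant ones and rose by 0.71 (SE 0.13, adjusted p = 0.00301). Neither call depended on a single tumour, but SMAD7 was not called with the arrays of the comparison alone (adjusted p = 0.0543). The ligands TGFB1 and INHBA and the target ID1 had differences of 0.33, 0.69 and -0.48 and were not called. The list's median was -0.09.

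The list of proximal tubule transporters and brush border genes had a lower mean level in every resistant tumour than in any untreated one. It also holds genes that are not transporters, such as PKHD1 and CDH6. Of 28 tested members 9 fell and 0 rose, and 8 did not overlap between the groups, beside 2.84% lower and 8.46% without overlap among all genes. The summed signal of the list was 81414 to 93901 in untreated and 55386 to 70281 in resistant tumours, and its median difference was -0.22, beside -0.01 for all genes. FXYD2, the regulatory subunit of the sodium pump in the kidney, had signals of 12093, 15046, 11397, 13241 and 7536 in the untreated tumours and 6023, 1994, 2739.5 and 1458 in the resistant ones. Resistant tumour 1 had the highest level of its group and untreated tumour 5 the lowest of its own, without overlap, and FXYD2 fell by 2.13 (SE 0.37, adjusted p = 0.00186). SLC3A1, a subunit of the cystine and dibasic amino acid carrier, had signals of 1285, 2081, 1819.9, 2168 and 2144 in the untreated tumours and 534, 506, 583 and 477 in the resistant ones and fell by 1.80 (SE 0.25, adjusted p = 0.000326). CLDN2, the claudin that lets sodium and water pass between cells, had signals of 1045, 1164, 1001, 848 and 653 in the untreated tumours and 322, 187, 205 and 155 in the resistant ones and fell by 2.06 (SE 0.32, adjusted p = 0.000982). The separation was complete for each of the 3 genes.

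PIGR, which carries antibodies across epithelia, had signals of 6333, 10774, 10765, 9428 and 7881 in the untreated tumours and 2394, 2398, 3235 and 1482 in the resistant ones and fell by 1.94 (SE 0.42, adjusted p = 0.00748), which was not called without probe sets open to cross-hybridisation (adjusted p = 0.173). PKHD1, fibrocystin of the primary cilium, had signals of 222, 292, 181, 131 and 97.5 in the untreated tumours and 1.41, 53.1, 27.2 and 56.1 in the resistant ones and fell by 2.10 (SE 0.35, adjusted p = 0.00114), to below the filter's limit. SLC17A3, a carrier of organic anions and urate, had signals of 1104, 883, 703, 995 and 437 in the untreated tumours and 359.5, 134, 211 and 199 in the resistant ones; it fell by 1.81 (SE 0.45, adjusted p = 0.0201) and was not called without untreated tumour 1 or resistant tumours 2, 3 or 4 (adjusted p from 0.0544 to 0.0707). The other 3 that fell were PDZK1 (-1.18), a scaffold of brush border carriers, SLC17A1 (-1.03) and the kidney cadherin CDH6. CDH6 fell by 0.58 (SE 0.14, adjusted p = 0.0175), lost without untreated tumours 1 or 2 or resistant tumours 2 or 4 (adjusted p from 0.0529 to 0.0619). The endocytic receptors LRP2 and CUBN and the peptidases MME and ANPEP, which also sit in the brush border, had differences of 0.36, 0.05, 0.28 and -0.26 and were not called. The fall was thus limited to some members: 17 of the 28 had a negative difference and 11 a positive one. The count of 9 was 5 without resistant tumour 2 and 5 without resistant tumour 4, and 8 with the spread of the 9 arrays alone. The lists of host markers had 0 or 1 calls each, and their part in these falls was not tested.

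The list of proximal tubule metabolic genes went with that of the transporters. Of 21 tested, 4 fell and 0 rose, beside 2.84% and 2.22% of all genes, with a median of -0.25. GATM, which makes the precursor of creatine, had signals of 531, 746, 977, 609.8 and 712 in the untreated tumours and 287, 215, 171 and 245 in the resistant ones and fell by 1.57 (SE 0.23, adjusted p = 0.000441). AGXT2, a mitochondrial aminotransferase, had signals of 222, 361, 251, 481 and 184 in the untreated tumours and 98.8, 72.3, 78.3 and 79.6 in the resistant ones and fell by 1.61 (SE 0.31, adjusted p = 0.00362). Both held without any single tumour. The others were ALDH8A1 and FABP7, a fatty acid-binding protein with signals of 900.3, 1252, 1768, 931 and 803 in the untreated tumours and 245, 190.0, 328 and 289 in the resistant ones; FABP7 fell by 2.01 (SE 0.50, adjusted p = 0.0196) and was not called without resistant tumour 2 (adjusted p = 0.0598). TINAG, a basement membrane protein of the tubule that is in neither list, had signals of 1094, 1636, 1439, 1447 and 1359.8 in the untreated tumours and 534, 264, 387 and 327 in the resistant ones and fell by 1.87 (SE 0.22, adjusted p = 4.43e-05), which was not called without probe sets open to cross-hybridisation (adjusted p = 0.198). MAL, a membrane protein of polarised epithelia, fell by 1.93 (SE 0.43, adjusted p = 0.00949). PCK1 and BBOX1, also tubule enzymes, had positive differences of 0.89 and 1.11 that were not called.

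None of 14 tested transcription factors of kidney epithelium was called by limma, and 5 lower and 1 higher had an unadjusted p under 0.05. Of all 13808 tested genes 2.84% were called lower and 2.22% higher, and 2584 had an unadjusted p under 0.05. The list's median difference was -0.32. PAX8 and PAX2 had differences of -0.06 and -0.34, and HNF4G, ESRRG and PPARGC1A, the last of them a co-activator of mitochondrial genes, of -0.55, -0.73 and -0.90. The promoter of PKHD1 is shown because it holds the half-site GTTAAT of the kidney factor HNF1. It is on the minus strand at chr6:52087614-52087863, again the 250 bases before the start site from RefSeq (GRCh38.p14), 5′ to 3′, with the match on either strand in capitals at -62.
PKHD1: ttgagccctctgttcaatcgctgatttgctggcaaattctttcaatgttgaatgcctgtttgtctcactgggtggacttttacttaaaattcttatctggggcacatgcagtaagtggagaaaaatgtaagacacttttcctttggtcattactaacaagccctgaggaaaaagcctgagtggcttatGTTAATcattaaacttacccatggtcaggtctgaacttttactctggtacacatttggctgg
The half-site stood in 1 of 10 promoters found for tubule genes that fell, in 7 of 29 of tubule genes that did not fall and in 4.17% of those of the tested genes (6.89% of all 27305). It was therefore not a shared feature of the windows of genes that fell.

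Ion transport genes changed in opposite directions within 1 family. FXYD5, which modulates the sodium pump and cell adhesion, had signals of 2688, 2751, 2770.3, 2907 and 2705 in the untreated tumours and 3635, 3962, 4275 and 4830.0 in the resistant ones and rose by 0.59 (SE 0.11, adjusted p = 0.00297), while FXYD2 fell. KCNJ15, a potassium channel, had signals of 2202, 1274, 1032, 1629.7 and 785 in the untreated tumours and 719, 468, 564 and 329 in the resistant ones and fell by 1.35 (SE 0.36, adjusted p = 0.0283), lost without untreated tumours 1, 2 or 4 or resistant tumours 2, 3 or 4 (adjusted p from 0.0503 to 0.104). The pump subunits ATP1B1 and ATP1B3 had differences of -0.14 and 0.07 and were not called. Of 16 tested, 2 rose (NKAIN4 and FXYD5) and 2 fell, beside 2.22% and 2.84% of all genes.

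Several members of the list of xenobiotic metabolism enzymes were lower, though not every member need act on foreign compounds. Of 27 tested members 6 fell and 0 rose, beside 2.84% and 2.22% of all genes, with a median difference of -0.23. UGT2B4, a glucuronosyltransferase, had signals of 1025, 629, 688, 1178 and 569.8 in the untreated tumours and 285, 133, 210.4 and 139 in the resistant ones and fell by 2.01 (SE 0.37, adjusted p = 0.00299). UGT3A1 had signals of 192, 286, 308, 221 and 138 in the untreated tumours and 66.4, 48.1, 45.8 and 54.9 in the resistant ones and fell by 1.77 (SE 0.36, adjusted p = 0.00549). ACSM3, a medium-chain acyl-CoA synthetase, fell by 0.98 (SE 0.21, adjusted p = 0.00722), and SULT1C2, CYP1B1 and UGT8 by 1.65, 1.11 and 0.40. The 6 falls were 5 to 7 without any single tumour and 6 with the spread of the 9 arrays alone. CYP3A4 and CYP3A5, the main enzymes of sunitinib clearance in the liver, had differences of 0.32 and -0.13 and were not called.

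NRF2 targets, the antioxidant genes that NFE2L2 induces, showed 6 falls and 1 rise among 31. Among all genes 2.84% were lower and 2.22% higher, and the list's median was -0.14. AKR1C3, an aldo-keto reductase, had signals of 6966, 7417, 5542, 6307 and 4540.4 in the untreated tumours and 3265, 1642, 2213 and 1543 in the resistant ones and fell by 1.54 (SE 0.27, adjusted p = 0.00205). AKR1B10 had signals of 199, 251, 154, 179 and 170.2 in the untreated tumours and 141, 47.3, 42.8 and 44 in the resistant ones and fell by 1.41 (SE 0.23, adjusted p = 0.00114), with resistant tumour 1 far above the other resistant ones. GCLC, which starts glutathione synthesis, had signals of 961, 879.7, 916, 1006 and 799 in the untreated tumours and 763, 657, 662 and 537 in the resistant ones and fell by 0.48 (SE 0.09, adjusted p = 0.00354). Each of the 3 held without any single tumour, but GCLC was not called without probe sets open to cross-hybridisation (adjusted p = 0.499) or with the arrays of the comparison alone (adjusted p = 0.0772). AKR1C2, AKR1C1 and PIR also fell, by 1.12, 0.78 and 0.85. The AKR1C genes are near-identical, so their probe sets may measure shared transcripts, and 1 fall was left without probe sets open to cross-hybridisation. TALDO1, a pentose phosphate enzyme, rose by 0.25 (SE 0.07, adjusted p = 0.0416), lost without untreated tumours 1, 2, 4 or 5 or resistant tumours 1, 2, 3 or 4 (adjusted p from 0.0561 to 0.101). NQO1, HMOX1 and TXNRD1 were not called, with differences of -0.34, -0.14 and -0.14.

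No efflux pump was called higher in resistant tumours. ABCB1, P-glycoprotein, had signals of 1535, 1722, 1239, 1338 and 1379 in the untreated tumours and 1050.2, 1134, 729 and 564 in the resistant ones. All 4 resistant tumours were lower; ABCB1 fell by 0.76 (SE 0.18, adjusted p = 0.0124), which was not called without resistant tumour 3 (adjusted p = 0.0554) or resistant tumour 4 (adjusted p = 0.0672). ABCG2, which also exports sunitinib, was below the filter's limit in every tumour of the comparison. It had signals of 33, 64, 77.5, 86.8 and 77.1 in the untreated tumours and 40.9, 62.8, 41.9 and 3.38 in the resistant ones and a difference of -0.78 (adjusted p = 0.154). ABCC1 and ABCC3 had differences of 0.19 and 0.03. Of 18 drug transporters tested, ABCB1 was the only one called, beside 2.22% of all genes called higher and 2.84% called lower. These counts are too near the shares of all genes to be a result about the list.

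**Figure D4:**
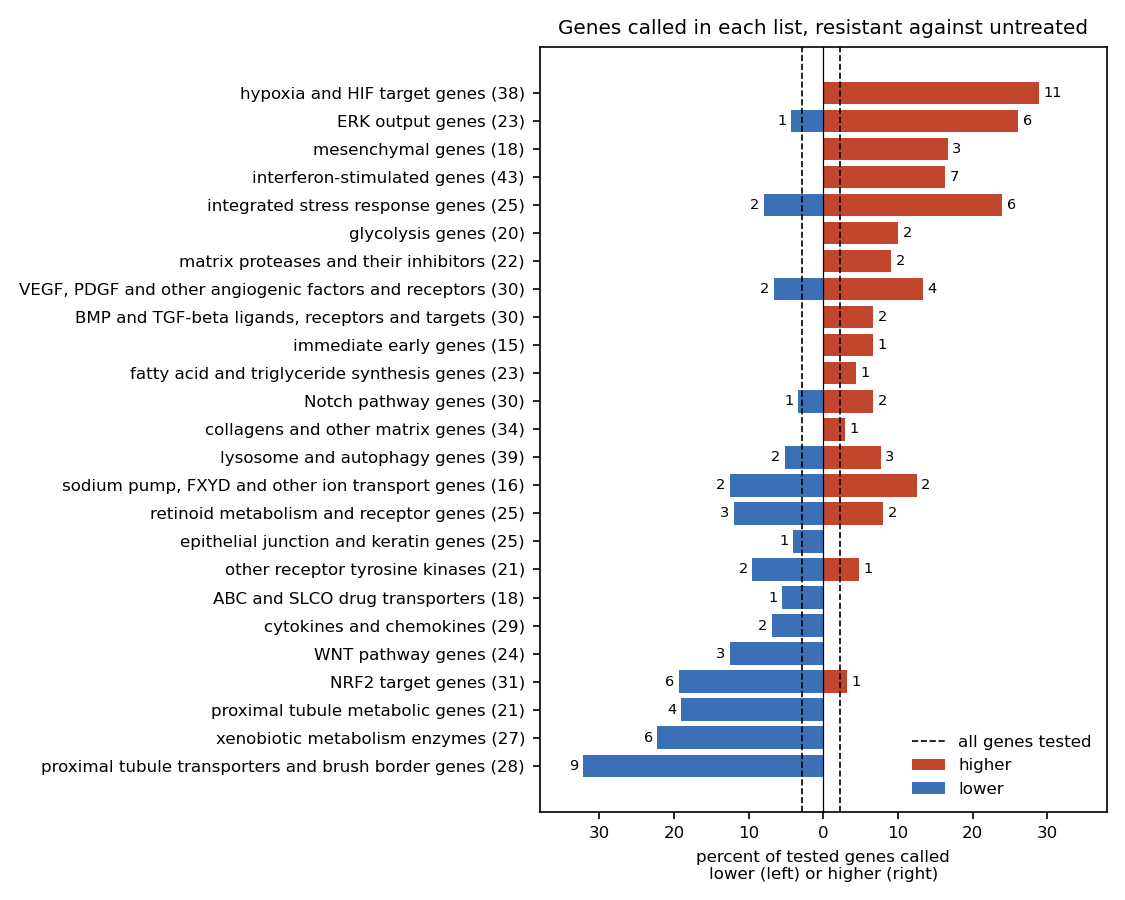
Percent of the tested genes of each list that were called higher (red, right) or lower (blue, left) in resistant tumours, with counts at the bars and the number tested beside each name. Dashed lines mark the 2.22% and 2.84% of all 13808 genes; lists with calls and at least 15 tested genes are shown, with hypoxia genes at the top and tubule transporters at the bottom.

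Genes of cell shape, invasion and matrix had scattered calls, beside 2.22% of all genes called higher and 2.84% called lower. Of 18 mesenchymal genes 3 rose, the fibronectin receptor subunit ITGA5 by 0.64 (SE 0.16, adjusted p = 0.0187), LOX by 0.82 (SE 0.24, adjusted p = 0.0424) and the gelatinase MMP2 by 0.56 (SE 0.16, adjusted p = 0.0426). ITGA5 was not called without resistant tumour 3 (adjusted p = 0.0663) or resistant tumour 4 (adjusted p = 0.0606), LOX not without untreated tumours 1, 2, 3 or 5 or resistant tumours 1, 2 or 3 (adjusted p from 0.0615 to 0.122) and MMP2 not without untreated tumours 1, 2, 3, 4 or 5 or resistant tumours 3 or 4 (adjusted p from 0.0544 to 0.134). The list's level was 11.05 to 11.44 in the untreated and 11.57 to 11.63 in the resistant tumours, so that the groups were separate for the list mean, although its calls were 0 without resistant tumour 3 or with the spread of the 9 arrays alone. VIM, FN1 and ZEB1 had differences of 0.20, 0.24 and 0.16 and were not called. Muscle markers, which were also higher, are given above, and DES and ACTA1 among them had differences of 0.63 and 1.01; their part was not tested.

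PLAUR, the urokinase receptor, had signals of 477, 418, 644, 699 and 709.7 in the untreated tumours and 866, 1094, 1072 and 1052 in the resistant ones and rose by 0.80 (SE 0.15, adjusted p = 0.00354) without overlap. It and MMP2 were the 2 of 22 proteases and inhibitors that rose. This count was 4 without resistant tumour 1, 1 without untreated tumour 1 and 0 with the arrays of the comparison alone. CCN2, a matrix protein induced by YAP and TGF-beta, was the only 1 of 34 matrix genes called, a count near the share of all genes. CCN2 had signals of 852, 236, 347, 158 and 205 in the untreated tumours and 614, 1234, 1285 and 733 in the resistant ones; untreated tumour 1 lay within the resistant range, and the rise of 1.58 (SE 0.38, adjusted p = 0.0169) was lost without resistant tumour 2 (adjusted p = 0.0559) or resistant tumour 3 (adjusted p = 0.0714). Of 25 epithelial junction and keratin genes only CLDN10 was called; it fell by 0.88 (SE 0.20, adjusted p = 0.0106), lost without resistant tumour 3 (adjusted p = 0.0634). Among 29 cytokines and chemokines 2 fell, beside 2.84% of all genes. CX3CL1, fractalkine, had signals of 289.9, 359, 256, 210.3 and 175 in the untreated tumours and 116, 131, 145 and 99 in the resistant ones and fell by 0.96 (SE 0.17, adjusted p = 0.00225), and IL18 fell by 0.81 (SE 0.24, adjusted p = 0.0445), lost without untreated tumours 2, 3, 4 or 5 or resistant tumours 3 or 4 (adjusted p from 0.0719 to 0.168). CXCR4, the receptor of CXCL12, had signals of 1367, 1743, 2244, 3049 and 3505 in the untreated tumours and 2389, 2415, 2252 and 3011 in the resistant ones and a difference of 0.15 (adjusted p = 0.83).

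The lists of cell cycle genes and p53 targets held no called gene. Among 41 cell cycle genes limma called 0, 2 higher and 1 lower had an unadjusted p under 0.05, and the median was 0.03. Of all 13808 tested genes 2584 had an unadjusted p under 0.05, and 2.22% were called higher and 2.84% lower. With these shares, 0 calls in lists of this size are no result about the lists. MKI67, the proliferation marker, had signals of 961, 944, 1125, 1062 and 1184 in the untreated tumours and 1177, 1064, 1451 and 1261 in the resistant ones and a difference of 0.22 (adjusted p = 0.572). CDKN1A, the p53-induced inhibitor of cyclin-dependent kinases, had signals of 2781, 2740.1, 2849, 2539 and 1889 in the untreated tumours and 3171, 2895, 3018 and 3752 in the resistant ones and a difference of 0.33 (adjusted p = 0.191). The groups overlapped for MKI67 and not for CDKN1A, where untreated tumour 5 was the lowest by far. Of 23 p53 targets limma called 0, with 3 higher and 1 lower at an unadjusted p under 0.05, and of 32 respiratory chain genes 0, with 1 higher and 2 lower. Of 19 cholesterol synthesis genes limma called 0, with 0 higher and 2 lower at an unadjusted p under 0.05 and a median of 0.05; SCD was the only 1 of 23 fatty acid synthesis genes called.

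The same line under sorafenib, which also blocks VEGF and PDGF receptors and in addition RAF kinases, was profiled in separate tumours. In the sorafenib arm 825 genes were higher (5.97%) and 1267 lower (9.18%), with its own 5 untreated tumours; median centring turned this to 1195 higher and 728 lower. Of the genes called with sunitinib, 143 also rose and 216 also fell with sorafenib, which is 51.4% of the sunitinib calls and 17.2% of the sorafenib calls, and 8 were called in opposite directions. The difference between the 2 changes was called for 70 genes in the direction of sunitinib (0.507%) and for 61 in the other (0.442%). That count fell to as few as 64, without sunitinib-resistant tumour 4, and was 65 without sunitinib-resistant tumour 1, 67 without sorafenib-resistant tumour 5, 69 without untreated tumour 5 of the sunitinib arm, 74 and 79 without untreated tumours 4 and 2 of the sorafenib arm and 79 without sorafenib-resistant tumour 4. With median centring it was 100, of which 36 were in the direction of sunitinib. Doses and drugs differ between the arms, and each arm has untreated tumours of its own, so that the drug and the arm cannot be told apart.

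Falls of some tubule genes, and of the xenobiotic enzyme UGT2B4, were seen in both arms. SLC3A1 had a difference of -1.84 with sorafenib (adjusted p = 6.04e-06), beside -1.80 with sunitinib. UGT2B4 had one of -3.41 beside -2.01, and GATM one of -1.81 beside -1.57. For SLC3A1, UGT2B4 and GATM the difference between the drugs was not called, with adjusted p of 0.973, 0.193 and 0.779. Other tubule genes that fell with sunitinib were not called with sorafenib. There AGXT2 had a difference of -0.81 (adjusted p = 0.0568), PIGR of -1.04 (adjusted p = 0.0742) and FABP7 of 0.45 (adjusted p = 0.574). But limma's test of the difference between the drugs called none of them, with adjusted p of 0.391, 0.497 and 0.0835. Their falls are thus not shown to be particular to sunitinib. DHRS3, PTGES and SCG5 likewise rose with sorafenib, by 2.39, 1.56 and 3.59. FLG, FABP7, IL1RAPL2 and GALNT12 were called with sunitinib only, but the difference between the drugs was not called for them (adjusted p from 0.0635 to 0.0964).

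For 2 ERK output genes that changed with sunitinib, the changes differed between the drugs. SPRY2 fell by 0.81 with sunitinib and rose by 0.76 with sorafenib, a difference between the changes of -1.58 (adjusted p = 0.00683) that was called without each single tumour of both arms. TMEM158 rose with both, by 1.57 and 3.00, and the difference of -1.43 (adjusted p = 0.0223) was not called without sunitinib-resistant tumour 1 (adjusted p = 0.0607) or 4 (adjusted p = 0.0553). As lists, ERK output had a median of 0.30 with sunitinib and 0.84 with sorafenib, and cholesterol synthesis 0.05 and 0.57, the latter with 0 and 11 members higher; these list differences were not tested.

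SLCO4A1, an organic anion carrier, had a difference of 0.57 with sunitinib (not called) and of 3.05 with sorafenib, and the changes differed by -2.48 (adjusted p = 0.000403). MFSD2A, a carrier of lysophospholipids, had 0.17 and 2.86, differing by -2.70 (adjusted p = 0.0132). A4GALT, which makes the glycolipid Gb3, fell by 0.73 with sunitinib, lost without untreated tumours 1, 2, 3 or 5 or resistant tumours 1 or 2 (adjusted p from 0.0542 to 0.179), and rose by 1.51 with sorafenib. Its changes differed by -2.24 (adjusted p = 0.000403). TSPAN2, a tetraspanin, fell with sorafenib and was not called with sunitinib: it had signals of 5318, 4054, 4827, 4061 and 3128 in the untreated tumours and 4289, 3418, 3013 and 4493 in the resistant ones in the sunitinib arm, a difference of -0.16 there and of -2.57 with sorafenib, and the changes differed by 2.40 (adjusted p = 0.000403). MAGEH1, of the MAGE family, had signals of 304, 323, 553, 416 and 501 in the untreated tumours and 878, 821, 900.4 and 1056 in the resistant ones and rose by 1.13 (SE 0.24, adjusted p = 0.00738) with sunitinib, against -0.72 with sorafenib; its changes differed by 1.84 (adjusted p = 0.00543). SPTB differed by 2.42 (adjusted p = 0.0113), with changes of 0.77 with sunitinib (adjusted p = 0.208, not called) and -1.65 with sorafenib. The means of both its groups in the sunitinib arm lay below the filter's limit, so the size is uncertain. The differences of these 6 genes and of SPRY2 were called without each of the 19 tumours of both arms, and those of CIDEB, HMGA1, COL1A1, MAP1LC3C, SETBP1 and KCNJ15 were lost without at least 1. In the sunitinib arm both group means of CIDEB and SETBP1, and the untreated mean of HMGA1, were also below the filter's limit.

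**Figure D5:**
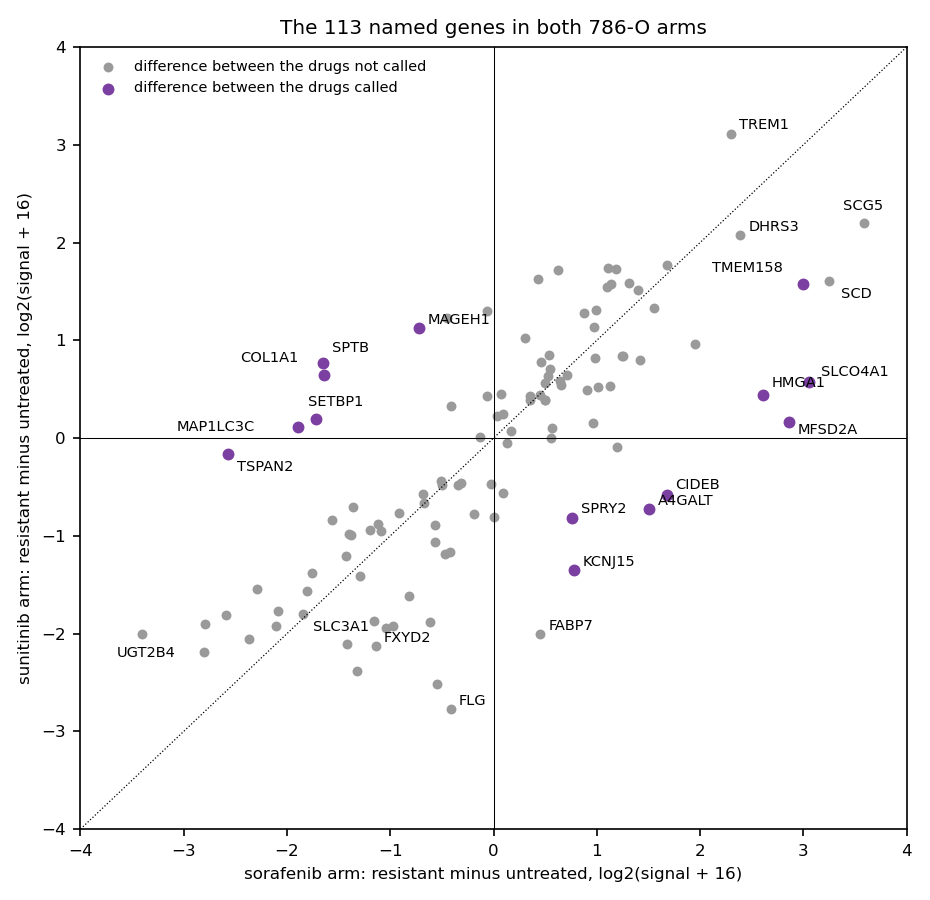
Resistant minus untreated difference of the 113 named genes in the sunitinib arm (y axis) against that in the sorafenib arm (x axis), both on the log2(signal + 16) scale; the dotted line marks equal changes. Purple points are the 14 genes whose difference between the drugs was called; SLC3A1 and DHRS3 lie near the line, while SPRY2 and MAGEH1 lie in opposite quadrants.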

How the data were processed

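Per the labels, RNA was extracted with Trizol from frozen tumours, biotin-labelled and hybridised. The values are deposited intensity values, which the submitters' processing notes tie to RMA and MAS5 without a role or version; linear values with equal trimmed means of 500.1 on these arrays have the form that MAS5 scaling gives. Of 54675 probe sets, 41091 had 1 symbol, 1801 several and 11721 none.

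A model with 1 coefficient per group was fitted with limma 3.58.1 (R 4.3.3) to log2(signal + 16) of the 28 arrays (22 residual degrees of freedom), without covariates, and checked on simulated data. Named genes were the 15 largest rises and falls without overlap, up to 3 called members of each list and direction by adjusted p, 16 genes of interest, and the 6 largest in each direction for the difference between drugs and for a shared change; uncharacterised loci, pseudogenes and Y-linked genes were not named. Other list members, given with their differences, were added as examples after their values were seen. The genes and 41 lists were chosen with earlier results of these data known. Alternatives were other pseudocounts (1 and 64), filters, probe set choices, scalings, weights, variance models, a GAPDH covariate, a threshold of 0.5 and leaving out each array. For arrays, the number of tumours limits the precision. Figures used matplotlib 3.10.9 and Python 3.11.15.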

Additional observations from a re-analysis of the deposited data

Results flagged for a closer look

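Of 308 groups of tumours checked, 17 held a tumour that stood far from the nearest other one relative to the range of its group; chance sets apart about 1 in 20 groups. In resistant tumours C1R was lowest in tumour 1, with a signal of 3149, and PLAUR in the same tumour, with 866. ITGA5 and SOX18 were lowest in resistant tumour 2, with 2278 and 55.4, and PSPH in resistant tumour 3, with 584. PTGES was highest in resistant tumour 3 (4359), FGFR4 in resistant tumour 4 (859), HMGA1 in resistant tumour 2 (294), and both AKR1B10 and ACSM3 in resistant tumour 1 (141 and 574). In untreated tumours NPC2 was highest in tumour 3 (6753) and AXL in tumour 1 (3687), while FLT1 was lowest in tumour 2 (38.2) and CDKN1A in tumour 5 (1889). Of list means on the log2 scale, those of fatty acid synthesis in resistant tumour 4 (9.55), of NRF2 targets in untreated tumour 5 (10.35) and of muscle markers in resistant tumour 2 (7.04) stood apart.

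The change with sunitinib differed from that with sorafenib, by limma's test of the difference itself, for 14 named genes. Sunitinib minus sorafenib was -1.43 for TMEM158, -1.58 for SPRY2, -2.13 for KCNJ15, -2.70 for MFSD2A, -2.48 for SLCO4A1, -2.26 for CIDEB, -2.24 for A4GALT and -2.17 for HMGA1. It was 2.42 for SPTB, 2.40 for TSPAN2, 2.29 for COL1A1, 2.01 for MAP1LC3C, 1.92 for SETBP1 and 1.84 for MAGEH1. Of these, 7 were called without each single tumour of both arms.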

How the results depend on the processing

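No paired analysis was possible because the numbers of the tumours come from deposition order alone. Genes called in the sunitinib comparison numbered 698, and 259 with the arrays of the comparison alone, of which 229 were among the 698, and 16 when tested against 0.5 on the log2 scale; leaving out 1 tumour gave 313 to 659. With the other alternatives the count was 479 to 813. The difference between the drugs was called for 131 genes, for 73 without a filter and for 8 when tested against 0.5; leaving out 1 tumour gave 64 to 171. The sorafenib comparison had 2092 calls, 209 when tested against 0.5 and 1579 to 1931 without 1 tumour. The GAPDH difference was -0.08 to -0.01 and that of ACTB -0.02 to 0.05 without 1 tumour. Median centring moved the median difference of all genes to 0.05.

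Of the 94 named genes called, 50 kept the call with the arrays of the comparison alone and 13 when tested against 0.5. Direction was reversed for TMT1A (1.26 with a pseudocount of 1, when another probe set was taken), for ATP6V0E1 (-0.078 with the mean of its probe sets and -0.69 without probe sets open to cross-hybridisation) and for LGR4 (0.00066 with the mean of its probe sets). Signals near the limit of 89.4 bound the size of a change, which applies to 96 called genes with at least 1 group below it. Of 435 called genes with further probe sets, 108 had another called in the same direction and 2 in the opposite one.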
